A study of Mus musculus with 10 samples.

Results

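The expression of 9 genes of retinoid metabolism and retinoic acid signaling was examined in interscapular brown adipose tissue (iBAT) of mice on a high-fat diet (HFD). They are the binding protein and uptake genes Rbp4 and Stra6, the synthesis genes Aldh1a1, Aldh1a2 and Aldh1a3, the clearance gene Cyp26b1 and the receptor genes Rara, Rarb and Rarg. They were chosen by function out of 41249 gene identifiers in the count tables, and all 9 were found there by symbol in GENCODE M21. Cyp26b1 was picked after its lower counts in Axl KO mice had been seen, so its difference between the genotypes is a description. Cyp26b1 stayed in the fits over all genes, but nothing is read from its outcome there. It was left out of the permutation tests between genotypes. Of the 9 genes, 7 had a mean above 1 CPM (read counts scaled to the size of the library) over all mice and entered the test. Aldh1a2 and Stra6 did not.

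Whole iBAT was taken from 5 mice with a constitutive, whole-body loss of Axl, a receptor tyrosine kinase (Axl KO), and from 5 wild-type (WT) mice, and 1 library was sequenced per mouse. By the sample labels, all 10 mice started HFD at 6 to 8 weeks of age and stayed on it for 24 weeks, at room temperature; the study itself gives a later start and a longer time on the diet. The study's methods describe the Axl allele as a knockout-first cassette, carried in every cell of the animal, and made from embryonic stem cell clones, and the controls as WT littermates. The study describes the sequenced mice as males. The comparison asks how loss of Axl changes brown fat under HFD. RNA came from the whole depot, so a lower count from fewer cells of a type and one from less RNA per cell cannot be told apart. The total count per mouse was 5431014 to 8214841 in Axl KO and 5952427 to 9580215 in WT mice. Axl itself was at 0.438 to 2.01 CPM in Axl KO and at 38.3 to 52.4 CPM in WT mice, a log2 fold change of −4.77 (SE 0.20, edgeR adjusted p = 1.09e-07). Ucp1, which defines brown adipocytes, was at 2996 to 7648 CPM over all mice. The summed counts of 9 skeletal muscle genes were at 22.6 and 4.82 CPM in Axl KO replicates 1 and 2 and at 562 to 3628 CPM in the other 8 mice, so those 2 libraries stood apart, and the fold changes of the tested members without them are given below.

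Vitamin A travels in blood as retinol bound to RBP4, and STRA6 is a membrane receptor that takes it into cells. Inside the cell, dehydrogenases oxidize retinol to retinal, the ALDH1A enzymes oxidize retinal to retinoic acid, and CYP26 enzymes degrade retinoic acid. Retinoic acid binds the receptors RARα, RARβ and RARγ, which pair with retinoid X receptors on DNA, and in brown adipocytes retinoic acid is a known inducer of Ucp1.

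Between the genotypes, the widest difference among these genes was that of Cyp26b1, which was at 19.99% of its WT mean in Axl KO mice. Rarg and Rbp4 had the next clearest separation from the spread between mice, with Rarg lower and Rbp4 higher in Axl KO mice. Neither passed the adjusted test. With edgeR's quasi-likelihood test, adjusted by Benjamini-Hochberg over 13739 genes, 0 of the 7 tested members had an adjusted p under 0.05, where 0.00728% of all tested genes did (Axl alone). DESeq2 called 1 of the 7, Cyp26b1, against 0.0655% of all tested genes; that gene was chosen on this contrast, so nothing is read from the count. Of the 6 tested members other than Cyp26b1, 2 had an unadjusted p under 0.05, against 8.38% of all tested genes: Rarg, which was lower (3.86% of all tested genes were called in that direction), and Rbp4, which was higher (4.52%). The groups did not overlap for 1 of these 6 members, Rarg, against 1.36% of all tested genes, nor for Cyp26b1, from which nothing is read, since it was chosen on this contrast. Of the 6 tested members without Cyp26b1, the fitted difference was below 0 for 4 and above 0 for 2. Over all 13739 tested genes it was below 0 for 6907 and above 0 for 6832. The median log2 fold change of the 6 members without Cyp26b1 was −0.20, beside −0.00078 over all tested genes.

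**Figure D1:**
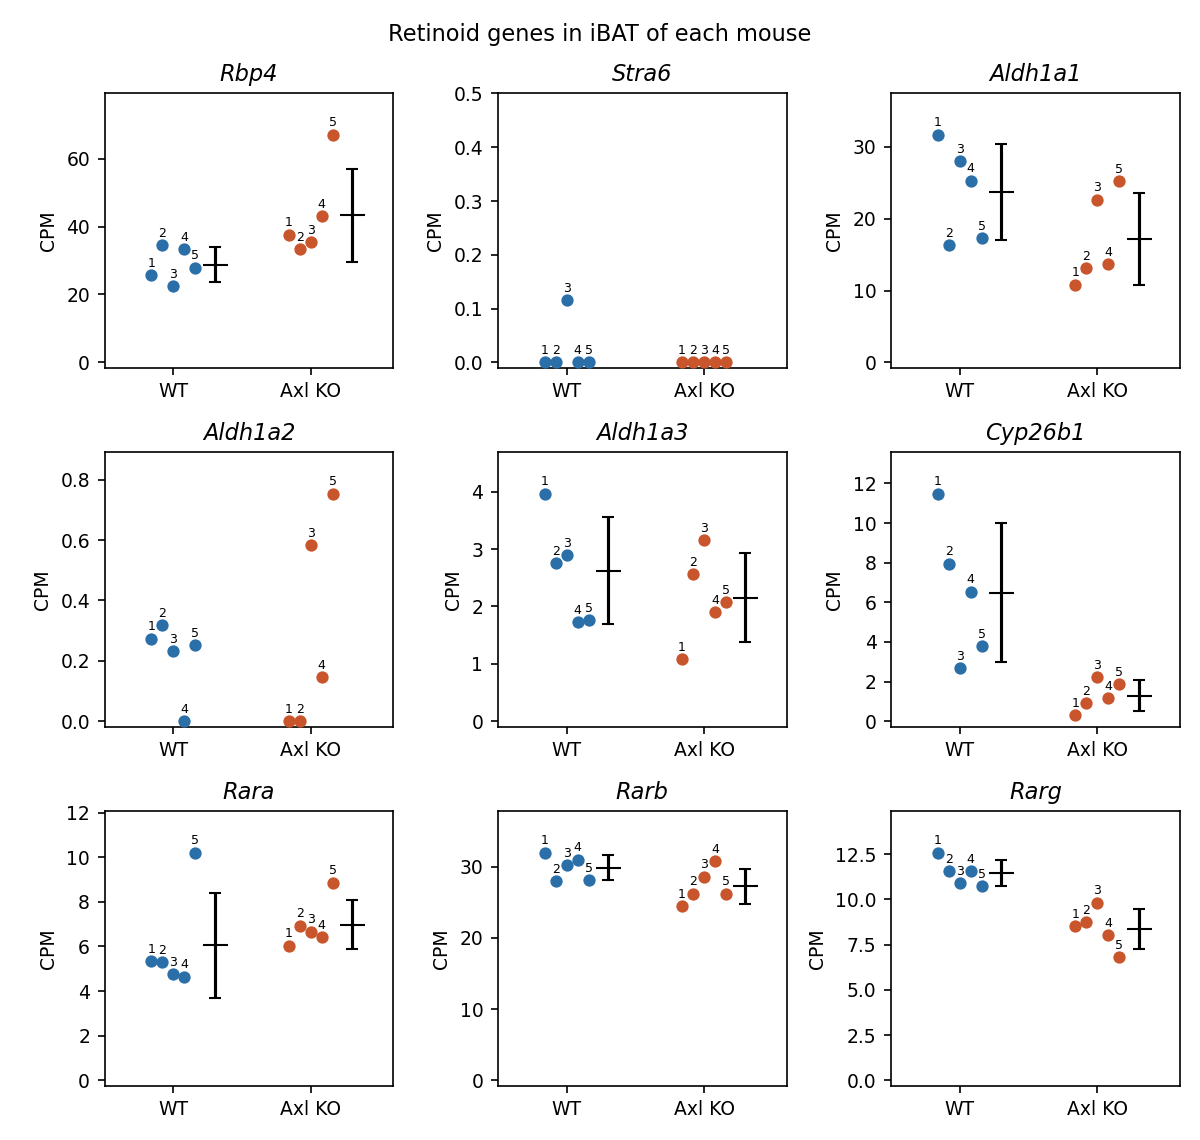
CPM of the 9 genes in each mouse, with the replicate number above each point, for 5 WT (blue) and 5 Axl KO mice (red). Black bars give the mean and SD and are left out for Stra6 and Aldh1a2, whose values are mostly 0 or near it. For Cyp26b1 and Rarg the highest Axl KO mouse lies below the lowest WT mouse, and the other genes overlap.

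The levels of these genes in iBAT were first ordered per length. Rbp4 had the highest level, 26.8 ± 9.27 CPM per kilobase of exon (SD, n = 10 mice of both genotypes). Rarb followed at 5.42 ± 0.466, Aldh1a1 at 4.14 ± 1.44, Rarg at 2.33 ± 0.434 and Rara at 1.49 ± 0.412 CPM per kilobase. Aldh1a3 at 0.517 ± 0.182 and Cyp26b1 at 0.727 ± 0.679 CPM per kilobase came next and did not differ beyond their spread (adjusted p = 0.887, two-sided exact sign-flip permutation test on log values within each mouse, 8 neighbour pairs). That p pools genotypes in which the order of the pair was opposite. The reversal holds the fall of Cyp26b1 on which that gene was chosen, so it is given as a description only. Aldh1a3 was the higher in 5 of 5 Axl KO mice (0.466 ± 0.167 against 0.242 ± 0.143 CPM per kilobase, SD), and Cyp26b1 was the higher in 4 of 5 WT mice (1.21 ± 0.655 against 0.568 ± 0.201 CPM per kilobase, SD). Aldh1a2 and Stra6 came last, at 0.113 ± 0.111 and 0.0020 ± 0.0063 CPM per kilobase. The other 7 neighbour pairs differed, with adjusted p between 0.00391 and 0.0179 in the same exact test. Among these, the step from Aldh1a2 to Stra6 was seen in 7 of 10 mice and rests on few counts of either gene. Its size depends on the 0.01 added before the log. The step from Rarb to Aldh1a1, seen in 8 of 10 mice, depended on how length was measured: with the longest transcript in place of all exons it was seen in 5 of 10 mice, and the adjusted p was 0.335 in that exact test.

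**Figure D2:**
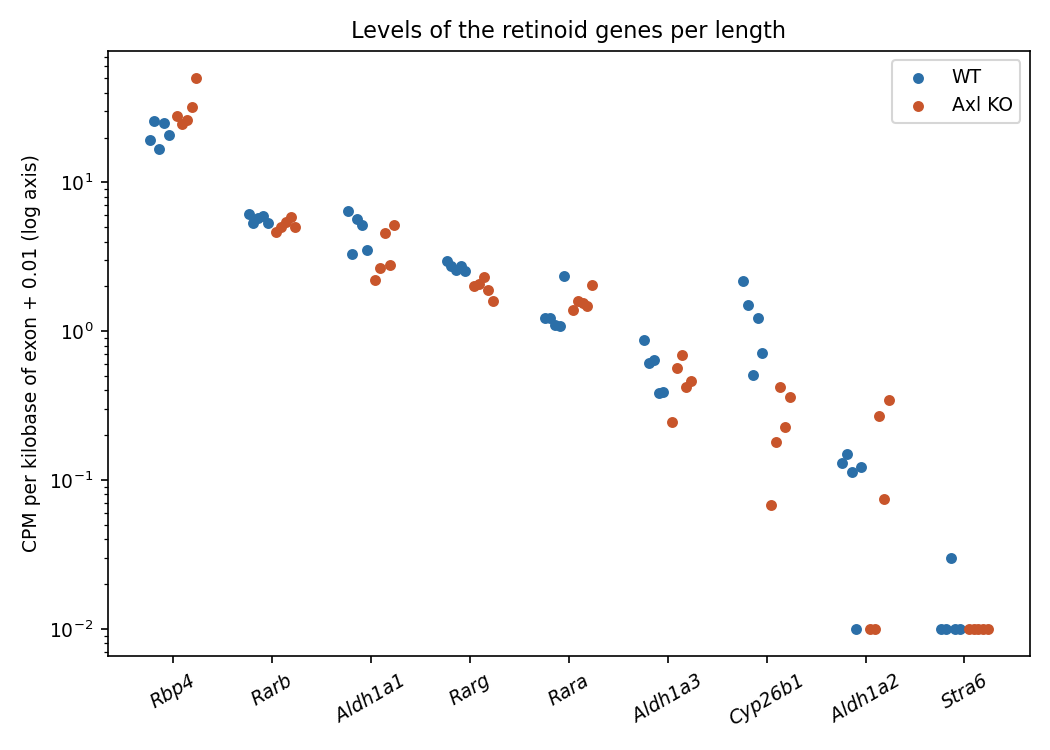
Level of each gene in each mouse as CPM per kilobase of exon plus 0.01, on a log axis, with WT mice in blue and Axl KO mice in red. Genes are ordered by mean log level, from Rbp4 at 26.8 CPM per kilobase to Stra6, which had 1 count in 1 WT mouse and lies at the bottom.

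Of the genes for transport and uptake, Rbp4 (ENSMUSG00000024990, chr19:38116629-38125281 in GRCm38, reverse strand), whose product carries retinol and is secreted by liver and fat, was at 37.6, 33.3, 35.4, 43.0 and 67.1 CPM in Axl KO replicates 1 to 5. In WT replicates 1 to 5 it was at 25.7, 34.5, 22.4, 33.4 and 27.9 CPM. The groups overlapped only through Axl KO replicate 2, the lowest of its genotype, which lay just under WT replicates 2 and 4. Axl KO mice averaged 43.3 ± 13.8 CPM (SD, n = 5) and WT mice 28.8 ± 5.13 CPM (SD, n = 5), a log2 fold change of 0.58 (SE 0.18; edgeR unadjusted p = 0.00796, adjusted p = 0.572). A two-sided exact permutation test of log2(CPM + 0.5) gave p = 0.0238. Axl KO replicate 5 was far above the other mice, and without it the log2 fold change was 0.38 (p = 0.0556 in the exact permutation test). Without the 2 low-muscle mice, and with the muscle covariate, it was 0.74. Stra6, the gene of the RBP4 receptor, had 0 counts in 9 of the 10 mice and 1 count in WT replicate 3. Over the 5 Axl KO libraries together, 0 counts allow a level of up to 0.0887 CPM (3 counts, counting error only), so a difference was not detectable at this depth.

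Other genes for binding and uptake were also few. Of 9 listed, 3 passed the filter on low counts and 0 had an unadjusted p under 0.05. Crabp1, Crabp2, Rbp2, Ttr and Lrp2, which encode carriers of retinoic acid or retinol and a receptor for RBP4, had 0 counts in all 10 mice. Rbp7, an intracellular retinol-binding protein of fat and its vessels, was at 6.56 to 13.95 CPM in Axl KO and 4.65 to 8.23 CPM in WT mice, with a log2 fold change of 0.48 (SE 0.24, edgeR adjusted p = 0.602). Fabp5, which can carry retinoic acid to PPARδ, was at 29.2 to 39.4 CPM in Axl KO and 23.3 to 47.4 CPM in WT mice (log2 fold change −0.066, SE 0.16).

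Retinoic acid synthesis was represented mainly by Aldh1a1 (ENSMUSG00000053279, chr19:20492715-20643465, forward strand). Its share of the 3 ALDH1A genes, per length, was 81.8 to 93.2% in the 10 mice. Aldh1a1 was at 10.8, 13.1, 22.7, 13.7 and 25.3 CPM in Axl KO replicates 1 to 5 and at 31.7, 16.3, 28.0, 25.3 and 17.3 CPM in WT replicates 1 to 5. Axl KO replicates 1, 2 and 4 lay below every WT mouse, while replicates 3 and 5 lay among the WT mice. The means of 17.1 ± 6.41 and 23.7 ± 6.74 CPM (SD, n = 5 each) did not differ beyond the spread between mice (log2 fold change −0.47, SE 0.25, edgeR adjusted p = 0.623; two-sided exact permutation p = 0.143).

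Aldh1a1 moved with the skeletal muscle transcripts that some iBAT samples held. This was noticed after the values were seen. Over the 8 mice with more than 100 CPM of summed muscle genes, the log2 values had a Pearson r of 0.960 (exact permutation p = 0.000496, adjusted p = 0.00347 over 7 members) and a Spearman rho of 0.857 (exact permutation p = 0.0107, adjusted p = 0.0750). Without the 2 mice farthest from the median of the muscle sum, r was 0.922. No other member had an adjusted p below 0.821 for r in this exact permutation test. For Cyp26b1 the pooled r holds the fall on which the gene was chosen, so nothing is read from it. The 8 mice comprise 5 WT and 3 Axl KO mice, too few for a value within each genotype. Axl KO replicates 1 and 2, with almost no muscle counts, had the lowest 2 levels of Aldh1a1. With the muscle sum as a covariate in edgeR, chosen after seeing the data, the log2 fold change of Aldh1a1 was −0.089 in place of −0.47, and without those 2 mice it was −0.21. All 9 muscle genes had a lower mean fit in Axl KO mice (median log2 fold change −1.07, 0 with an unadjusted p under 0.05). Their part in the level of Aldh1a1 was not tested further.

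**Figure D3:**
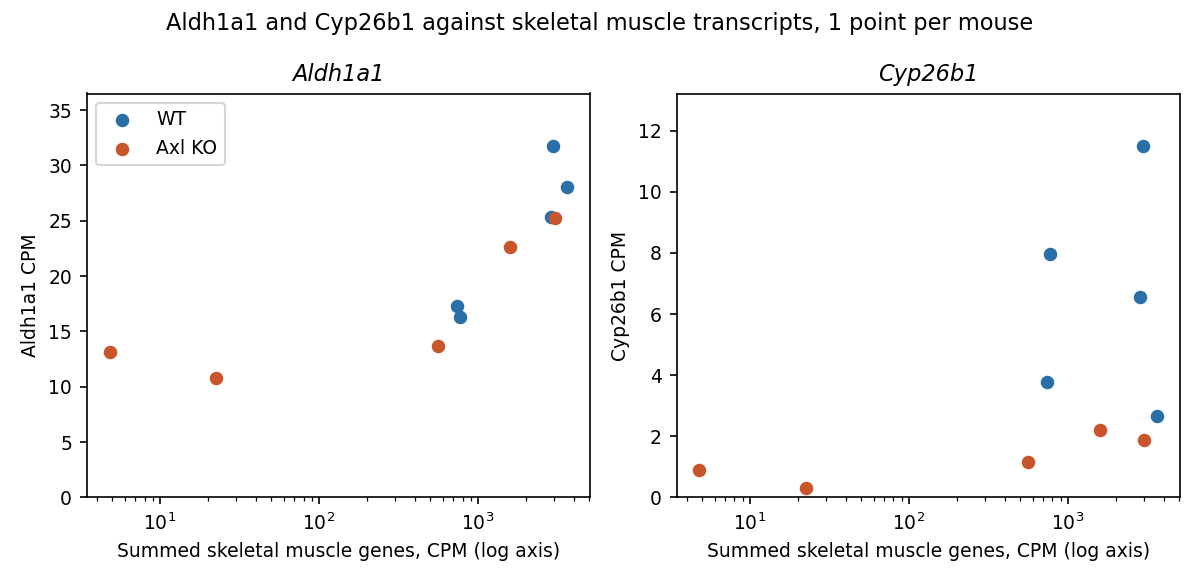
CPM of Aldh1a1 (left) and Cyp26b1 (right) against the summed CPM of 9 skeletal muscle genes on a log axis, 1 point per mouse, WT in blue and Axl KO in red. The 8 mice on the right of each panel are of both genotypes. Among these 8, Aldh1a1 is higher where the muscle sum is higher (r = 0.960 over all 8). For Cyp26b1 each Axl KO mouse lies below each WT mouse. Its r of 0.218 over the same 8 mice pools the genotypes and holds the fall on which the gene was chosen. Nothing is read from that r.

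The counts of Aldh1a1 also border on those of Aldh1a7, a close paralogue on the same chromosome (chr19:20692953-20727562, reverse strand). Their coding sequences were 91.6% identical in GENCODE M21, with a longest identical stretch of 100 bases, against 68.6 to 70.0% for the pairs among Aldh1a1, Aldh1a2 and Aldh1a3. Of the 1454 stretches of 50 bases in the Aldh1a1 coding sequence, 151 (10.4%) also occur in Aldh1a7. The first 60 coding bases show how alike they are, at chr19:20602012-20602071 (forward strand) for Aldh1a1 and chr19:20727453-20727512 (reverse strand) for Aldh1a7 in GRCm38, with capitals at the 3 bases that differ.
Aldh1a1: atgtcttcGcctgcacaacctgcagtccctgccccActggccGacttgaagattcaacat
Aldh1a7: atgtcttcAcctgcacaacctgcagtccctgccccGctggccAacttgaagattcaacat
How reads that match both genes were counted is not given in the sources used here. Aldh1a7 was the more abundant of the pair, at 106 to 127 CPM in Axl KO and 92.2 to 128 CPM in WT mice, and its log2 fold change was 0.042 (SE 0.0855, edgeR adjusted p = 0.912).

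Aldh1a3 (ENSMUSG00000015134, chr7:66390890-66427517), which encodes the third of these enzymes, was at 1.08, 2.56, 3.15, 1.90 and 2.07 CPM in Axl KO replicates 1 to 5 and at 3.97, 2.76, 2.90, 1.72 and 1.77 CPM in WT replicates 1 to 5. The 2 groups lay across one another, with the lowest mouse an Axl KO and the highest a WT mouse. The log2 fold change was −0.27 (SE 0.30, edgeR adjusted p = 0.818; exact permutation p = 0.444), and −0.47 to −0.088 when single mice were left out. Without the 2 low-muscle mice it was −0.12, and with the muscle covariate −0.11. Aldh1a2 (ENSMUSG00000013584, chr9:71215789-71296243), the main retinoic acid synthesis enzyme of embryos and of mesothelium, had 10 counts in all Axl KO and 9 in all WT mice. It was at 0 in 3 of the 10 mice and at most at 0.754 CPM, in Axl KO replicate 5. Mesothelial markers were as rare: the 6 genes summed to 1.03 to 3.58 CPM, and Upk3b, Upk1b and Wt1 had 0 counts in all mice. At this depth no difference in Aldh1a2 was detectable.

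Of 20 listed genes for the oxidation or reduction of retinol and retinal, 12 passed the filter, with the Aldh1a1 paralogue Aldh1a7 among them. Of these, 2 had an unadjusted p under 0.05, both higher in Axl KO mice (against the 4.52% given above), and 0 had an adjusted p under 0.05. The median log2 fold change of the 12 was 0.039. Dhrs9, a retinol dehydrogenase, was at 29.2, 20.2, 12.03, 16.8 and 28.7 CPM in Axl KO replicates 1 to 5. In WT replicates 1 to 5 it was at 3.83, 8.80, 13.2, 17.2 and 9.33 CPM. WT replicates 3 and 4 lay among the lower Axl KO mice, and the mean of the Axl KO mice was 204% of the WT mean. The log2 fold change was 1.03 (SE 0.32; edgeR unadjusted p = 0.0076, adjusted p = 0.572; exact permutation p = 0.0397). Rdh5, an 11-cis retinol dehydrogenase, was at 76.7 to 83.3 CPM in Axl KO and 68.4 to 74.6 CPM in WT mice, without overlap, as for 0.728% of all tested genes in that direction (log2 fold change 0.14, SE 0.050, edgeR adjusted p = 0.572). Rdh5 cannot be told apart from Bloc1s1, however, with which it shares 720 exon bases on the same strand and which was at 67.9 to 85.4 CPM in the same mice.

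The most abundant genes of this group were Adh1, an alcohol dehydrogenase that oxidizes retinol, and Dhrs4, a reductase that uses retinal. Adh1 was at 142 to 200 CPM in Axl KO and 158 to 183 CPM in WT mice (log2 fold change −0.090, SE 0.090; −0.21 without the 2 low-muscle mice and −0.23 with the muscle covariate). Dhrs4 was at 132 to 144 and 119 to 143 CPM (log2 fold change 0.11, SE 0.060). Rdh10, the retinol dehydrogenase most tied to retinoic acid synthesis, and Dhrs3, which returns retinal to retinol, were looked up after their values were seen. Their log2 fold changes were 0.0032 (SE 0.090) and −0.14 (SE 0.085), and their edgeR adjusted p were 0.998 and 0.653.

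For ester storage, carotenoid cleavage and saturation, 4 of 9 listed genes passed the filter, with a median log2 fold change of 0.13 and 0 at an unadjusted p under 0.05. Lrat, which forms retinyl esters in liver and eye, had 4 counts in all Axl KO and 2 in all WT mice (looked up after its values were seen). Lipe, a lipase that also cleaves retinyl esters, was at 1454 to 1670.0 CPM in Axl KO and 1497 to 1705 CPM in WT mice. Lpl, which releases retinol from circulating esters, was at 2068 to 3368 and 2197 to 2808 CPM. Neither differed beyond the spread between mice (log2 fold changes −0.075 and 0.16, edgeR adjusted p = 0.751 and 0.705).

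The clearance gene Cyp26b1 (ENSMUSG00000063415, chr6:84571414-84593908, reverse strand) encodes a cytochrome P450 that inactivates retinoic acid. The stretch that precedes its transcripts is shown because the gene had the widest difference of the set. It is from the RefSeq promoter table (GRCm38.p6), chr6:84593909-84594060 on the reverse strand, the 152 bases upstream of every GENCODE M21 transcript of the gene, with the letters TATAAA in capitals.
Cyp26b1: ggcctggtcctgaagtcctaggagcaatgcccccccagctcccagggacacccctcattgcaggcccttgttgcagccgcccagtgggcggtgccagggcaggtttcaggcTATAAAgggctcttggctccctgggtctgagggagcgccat
TATAAA occurs in 13.6% of 32851 promoter windows of 300 bases, on either strand. Retinoic acid receptors bind direct repeats of a half-site, and windows of 250 bases before to 50 after the start were searched on both strands for the half-site AGGTCA or one of its variants, which read AGTTCA in one form, GGGTCA in another and GGTTCA in the last, with any pair of these in the same direction with 1, 2 or 5 bases between. A spacer of 5 was found in 0.0974% of the windows, a spacer of 2 in 0.268% and a spacer of 1 in 0.222%. The window of Cyp26b1 held none of these repeats, which says nothing about elements elsewhere.

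Counts of Cyp26b1 were 2, 6, 19, 8 and 10 in Axl KO replicates 1 to 5 and 84, 75, 23, 38 and 30 in WT replicates 1 to 5. On the normalized scale this was 0.309, 0.904, 2.22, 1.17 and 1.89 CPM in Axl KO mice and 11.5, 7.96, 2.66, 6.55 and 3.78 CPM in WT mice. The groups did not overlap, and the nearest pair, Axl KO replicate 3 and WT replicate 3, was 2.22 against 2.66 CPM. The spread among WT mice was wide, from 2.66 in replicate 3 to 11.5 CPM in replicate 1. Axl KO mice averaged 1.30 ± 0.766 CPM (SD, n = 5) and WT mice 6.49 ± 3.50 CPM (SD, n = 5), and the fitted log2 fold change was −2.28 (SE 0.46). Leaving out any single mouse gave values between −2.62 and −1.98. Of all tested genes, 0.611% were at least 2-fold lower in Axl KO mice and 0.633% lay lower without overlap.

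Axl KO replicates 1 and 2, which had almost no skeletal muscle transcripts, also had the lowest 2 levels of Cyp26b1. Without both mice the log2 fold change was −1.85, and with the muscle sum as a covariate it was −1.88. The other 3 Axl KO mice still lay below all WT mice. Exoc6b, the one tested protein-coding gene that starts within 500 kb of Cyp26b1, was at 31.7 to 42.9 CPM in Axl KO and 38.2 to 45.8 CPM in WT mice (log2 fold change −0.17, SE 0.083, edgeR adjusted p = 0.602).

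Among all tested genes, those whose values most closely followed Cyp26b1 from mouse to mouse, after each genotype's mean was subtracted from log2(CPM + 0.5), were Zfp943, Faf2, Sar1a, Bzw2 and Idh1. Their Pearson r over the 10 mice were 0.941, 0.934, 0.920, 0.905 and 0.903. The same libraries and depths underlie every gene, these are the highest of 13738 such values, and their fitted log2 fold changes between genotypes were −0.19 to 0.074. Within the set, the closest to Cyp26b1 by this measure were Aldh1a3 (r = 0.617) and Aldh1a1 (r = 0.546).

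The other clearance genes could hardly be measured. Cyp26a1, the liver and embryonic member of the family, had 1 count in all Axl KO and 2 in all WT mice, and Cyp26c1 had 11 and 11. Cyp26b1 made up most of the CYP26 counts in both genotypes. Their coding sequences were 62.0 and 66.4% identical to that of Cyp26b1, and no stretch of 50 bases of the Cyp26b1 coding sequence occurred in another gene's transcripts. Ugt1a7c, which conjugates glucuronic acid to a range of small molecules, was at 3.58 to 6.78 CPM in Axl KO and 6.03 to 7.30 CPM in WT mice (log2 fold change −0.39, SE 0.17; edgeR adjusted p = 0.580). Between 31.1 and 51.4% of its exon bases are shared on the same strand with any one of the other Ugt1a genes that overlap it, so its counts are uncertain.

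The receptors differed in level: per kilobase of exon, Rarb made up 52.4 to 63.5%, Rarg 18.5 to 29.3% and Rara 11.03 to 23.6% of the 3 RAR genes in the 10 mice. Rarb (ENSMUSG00000017491, chr14:16430839-16819156, reverse strand) is itself known to be induced by retinoic acid through an element in its promoter. A direct repeat with a spacer of 5 was found in 1 of the 8 members that have a promoter window, Rarb, and begins 53 bases before the RefSeq start. The same kind of repeat was found in the window of Cyp26a1, on the opposite strand. With 6 bases on each side, the Rarb repeat overlaps 2 transcript exons of its gene in GENCODE M21. The Cyp26a1 repeat overlaps 1 of its gene. Neither stretch lies wholly upstream of every GENCODE transcript. Both repeats are shown with these bases and the half-sites in capitals, in GRCm38.p6. Rarb is at chr14:16575507-16575535 (reverse strand) and Cyp26a1 at chr19:37697770-37697798 (forward strand).
Rarb: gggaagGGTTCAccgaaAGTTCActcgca
Cyp26a1: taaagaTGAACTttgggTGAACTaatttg
Rarb was at 24.4, 26.2, 28.6, 30.8 and 26.2 CPM in Axl KO replicates 1 to 5 and at 32.0, 28.0, 30.2, 31.0 and 28.1 CPM in WT replicates 1 to 5. Axl KO replicates 1, 2 and 5 lay below all WT mice, and replicates 3 and 4 lay among them. The means of 27.2 ± 2.47 and 29.9 ± 1.77 CPM (SD, n = 5 each) gave a log2 fold change of −0.13 (SE 0.075, edgeR adjusted p = 0.646; two-sided exact permutation p = 0.103). With the muscle sum as a covariate it was −0.062, and without the 2 low-muscle mice −0.061. Of the exon bases of Rarb, 34.1% lie opposite exons of Top2b, which was at 121 to 148 CPM.

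Whether such an overlap reaches the counts was checked, after the values were seen, with genes nested in the exons of others at 50 CPM or more. Of 52 genes nested on the opposite strand, 24 had 0 counts and 6 were above 1 CPM. The median level per kilobase of the 52 was 0.000585 of that of the outer gene. All 16 genes nested on the same strand were above 1 CPM, with a median ratio of 1.36. Reads were thus counted apart by strand for most such genes, while genes that share bases on one strand each held counts.

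Rarg (ENSMUSG00000001288, chr15:102234938-102257517, reverse strand), the receptor gene known for its roles in skin and skeleton, was at 8.50, 8.74, 9.81, 8.02 and 6.79 CPM in Axl KO replicates 1 to 5. It was at 12.6, 11.6, 10.9, 11.5 and 10.7 CPM in WT replicates 1 to 5. All Axl KO values lay under the lowest WT value, as for 0.633% of all tested genes. Axl KO mice averaged 8.37 ± 1.101 CPM (SD, n = 5) and WT mice 11.5 ± 0.734 CPM (SD, n = 5), and the log2 fold change was −0.44 (SE 0.11; edgeR unadjusted p = 0.00161, adjusted p = 0.572). The two-sided exact permutation test gave p = 0.00794, the smallest that 5 mice against 5 allow. DESeq2's adjusted p was 0.410. Leaving out any single mouse gave log2 fold changes between −0.51 and −0.38, and both the muscle covariate and leaving out the 2 low-muscle mice gave −0.46.

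Rara (ENSMUSG00000037992, chr11:98927818-98974942, forward strand), the most widely expressed receptor gene of the 3, was at 6.03, 6.93, 6.66, 6.42 and 8.86 CPM in Axl KO replicates 1 to 5. It was at 5.33, 5.30, 4.75, 4.65 and 10.2 CPM in WT replicates 1 to 5. WT replicate 5 had the highest value of all mice, and the other 4 WT mice lay below every Axl KO mouse. The log2 fold change was 0.19 (SE 0.22, edgeR adjusted p = 0.824; exact permutation p = 0.294), and without WT replicate 5 it was 0.47 (exact permutation p = 0.00794). Leaving out any other single mouse gave log2 fold changes of 0.10 to 0.24 (exact permutation p of 0.254 to 0.556). The value of 0.47 thus rests on leaving out WT replicate 5. Without the 2 low-muscle mice the log2 fold change was 0.25. The 3 RAR genes together were at 39.0 to 45.2 CPM in Axl KO and 44.9 to 49.9 CPM in WT mice.

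Partners and cofactors of the receptors were well expressed, and all 12 listed genes passed the filter. Their log2 fold changes lay between −0.15 and 0.28 with a median of −0.011, and 0 had an unadjusted p under 0.05. Rxra, the retinoid X receptor gene with the highest level, was at 74.9 to 91.1 CPM in Axl KO and 78.4 to 83.5 CPM in WT mice (log2 fold change 0.0078, SE 0.060). Ncor1, a corepressor that binds RARs without ligand, was at 211 to 236 and 197 to 257 CPM (log2 fold change −0.017, SE 0.074).

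Genes known to respond to retinoic acid were mixed in direction. Of 21 listed, 14 passed the filter, 4 had a fitted difference above 0 and 10 below, and the median log2 fold change was −0.13. At an unadjusted p under 0.05, 1 was higher and 1 lower (4.52% and 3.86% of all tested genes), and 0 had an adjusted p under 0.05. Hic1, a transcriptional repressor, was at 5.41, 6.17, 4.21, 5.54 and 3.96 CPM in Axl KO replicates 1 to 5 and at 8.89, 6.79, 6.02, 8.27 and 9.96 CPM in WT replicates 1 to 5. The groups overlapped only at Axl KO replicate 2 and WT replicate 3 (log2 fold change −0.65, SE 0.18; edgeR adjusted p = 0.572; exact permutation p = 0.0159). Ucp1, the uncoupling protein gene, was at 4881, 4864, 4886, 5582 and 7648 CPM in Axl KO replicates 1 to 5 and at 3481, 4753, 2996, 5050.5 and 4359.7 CPM in WT replicates 1 to 5. The 2 groups overlapped through WT replicate 4 (log2 fold change 0.43, SE 0.16; edgeR adjusted p = 0.572; exact permutation p = 0.0556). Tgm2, a transglutaminase gene, was at 204 to 249 CPM in Axl KO and 209 to 250.05 CPM in WT mice (log2 fold change −0.075, SE 0.072).

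Over all 6 lists, which hold 71 other genes of the pathway, 44 were tested, 22 had a fitted difference above 0 and 22 below. At an unadjusted p under 0.05, 3 were higher and 2 lower in Axl KO mice (4.52% and 3.86% of all tested genes), 0 had an adjusted p under 0.05 in edgeR, and the median log2 fold change was −0.0023. The 10 brown adipocyte markers summed to 8449.6 to 11647 CPM in Axl KO and 6557 to 8704 CPM in WT mice, with 5 of 10 higher at an unadjusted p under 0.05 (4.52% of all tested genes). The 10 progenitor and fibroblast markers, which include Pdgfra, had a median log2 fold change of −0.24, with 9 of 10 fitted below 0, and summed to 517 to 832 CPM in Axl KO and 709 to 942 CPM in WT mice. Their part in the differences of Cyp26b1 and Rarg was not tested.

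**Figure D4:**
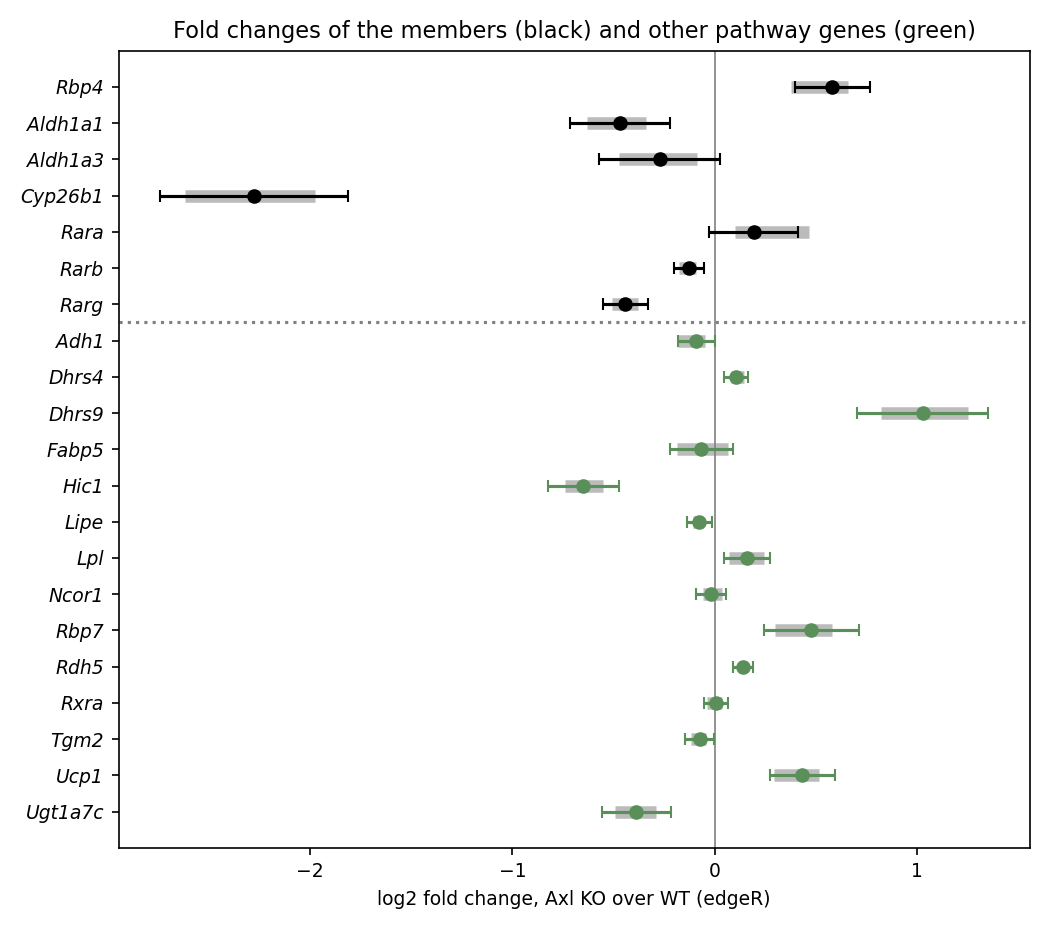
Fold change on the log2 scale, Axl KO over WT, of the 7 tested members (black) and of other pathway genes (green), with bars of 1 SE; grey bars give the range over the fits that leave out 1 mouse. Cyp26b1 at −2.28 lies farthest from 0, and Dhrs9 at 1.03 is the highest.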

How the data were processed

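The authors deposited, for each mouse, 1 table of raw read counts per Ensembl gene, without normalization or pooling. The sources differ on how reads were handled: the submitters' processing notes name bcl2fastq, Trimmomatic 0.36, STAR 2.6.1c, DESeq2 and GRCm38.p5, and polyadenylated RNA, whereas the study's methods name Trim Galore and hisat2, and depletion of ribosomal RNA. The counting tool and its strand setting are not given in the sources used here. Genotypes and replicate numbers were taken from the labels. The tables of any 2 mice differed beyond sampling noise (lowest chi-square per gene 5.03), so none looked like a second run of the same library. That each library is a separate mouse, and so 1 replicate, was taken from the labels.

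Of 41249 identifiers, 41163 matched GENCODE M21. Genes with a mean above 1 CPM over 10 mice were compared on genotype alone with the quasi-likelihood test of edgeR 4.0.16 (R 4.3.3) after TMM normalization, with Benjamini-Hochberg adjustment over all 13739 genes, and called at an adjusted p under 0.05. Counts were scaled to CPM with the TMM library sizes. Each SE was derived from the edgeR fit, as the absolute log2 fold change divided by the square root of the F statistic. For single genes, log2(CPM + 0.5) was tested by exact two-sided permutation of the genotypes with SciPy 1.17.1. Total counts of 5431014 to 9580215 limit genes with few reads; intervals cover counting error only. Mice of one genotype varied by 14.8% (coefficient of variation in the model). The procedure was also run on simulated counts in which all genes shared that 1 spread. Such a run does not cover genes with a wider spread between mice, such as Cyp26b1 and Aldh1a1. Alternatives were DESeq2 1.42.0, a robust fit, RLE size factors, no filter or filterByExpr in edgeR, a replicate block and leaving out single mice, and a muscle covariate and leaving out 2 mice were added after seeing the data.

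The members and the lists were chosen with earlier results of these data known. Genes named beyond the members include Axl, the 5 genes most like Cyp26b1, and neighbours within 500 kb. Pathway genes were named at an unadjusted p under 0.05 or if among the 2 highest per kilobase in their list. Outside this rule, Cyp26a1, cell type markers and list genes with 0 counts in all mice are named. Other names, such as Lrat, Rdh10 and Dhrs3, are marked in the text. Bloc1s1, Top2b and Aldh1a7 were added because they overlap or resemble these genes. Promoter windows came from RefSeq (GRCm38.p6), and 8 of the 9 members matched; Aldh1a3 did not. Coding sequences were aligned with Biopython 1.88. The 13 cell type lists were checked for levels only.

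Results of the lists not given elsewhere are as follows. For adipocytes of any depot, 8 of 8 markers were tested, with a median log2 fold change of 0.039. The medians were −0.27 for white adipocytes (5 tested), −0.12 for smooth muscle and pericytes (9), −0.080 for blood vessel endothelium (8), −0.15 for lymphatic endothelium (5), −0.0036 for macrophages (9), −0.088 for Schwann cells (5) and 0.021 for erythroid cells (5). The B and T cell markers summed to 0.729 to 3.08 CPM, with 0 tested.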

Additional observations from a re-analysis of the deposited data

Results flagged for a closer look

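Of 44 groups of 5 mice, 4 had a highest or lowest value set apart from the rest by a gap of over 0.71 of the whole spread, and chance gives about 2.2. Rbp4 was highest in Axl KO replicate 5, at 67.1 CPM, and the next value was 43.0 CPM (gap 0.712 of the spread). Rara was highest in WT replicate 5, at 10.2 CPM, and the next value was 5.33 CPM (gap 0.877). Axl was lowest in Axl KO replicate 4, at 0.438 CPM, and the next value was 1.70 CPM (gap 0.801). Ucp1 was highest in Axl KO replicate 5, at 7648 CPM, and the next value was 5582 CPM (gap 0.742), in the same mouse as for Rbp4. That mouse had the smallest library, with 5431014 counts.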

How the results depend on the processing

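Of the alternatives, DESeq2 alone moved a count: it called 9 genes and 1 member, Cyp26b1, in place of 1 gene and 0 members. Every other setting, leaving out single mice included (1 gene and 0 members in each fit), left both counts as they were. Of 126 alternative fits of single members, 125 kept direction and side of the threshold. The other 1, Cyp26b1 under DESeq2, passed it, and nothing is read from that, since the gene was chosen on this contrast. Because 0 members passed the threshold in the main fit, keeping its side says little about the size of a difference. With the muscle covariate, for example, the log2 fold change of Aldh1a1 went from −0.47 to −0.089. Of 88 alternative permutation tests, 79 kept direction and side of 0.05. By exact permutation, Rara passed 0.05 without WT replicate 5 (p = 0.00794) and Rarb without Axl KO replicate 4 (p = 0.0476). Rbp4 lost it without Axl KO replicate 5, WT replicate 1 or WT replicate 3 (exact permutation p = 0.0556 each). Aldh1a2, with 10 and 9 counts, reversed in 4. Leaving out single mice gave exact permutation p of 0.556 to 0.857 for Aldh1a2, and with a pseudocount of 0.1 it was 1. The order per kilobase had 7 of 8 differing pairs, and 6 with the longest transcript; the cause was not tested.

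No pairing by replicate number was evident: the correlations of same-numbered mice were −0.18, 0.37, 0.042, 0.049 and −0.36. Only replicate 2 correlated best with its own number. So few values cannot exclude a pairing, and the study describes the controls as littermates. With the number as a replicate block, edgeR called 1 gene and 0 members. With 2 to 19 counts per Axl KO mouse, Cyp26b1 is limited by the reads drawn, as are Aldh1a2 and Stra6.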
